A study of Capra hircus with 3 samples.

Results

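The genes described here copy DNA once per cell cycle and then separate the copies: origin licensing and firing factors, the cyclins of S phase and mitosis, UHRF1, centromere and kinetochore proteins, condensin, checkpoint proteins and spindle proteins. They were taken by symbol (the MCM, ORC, GINS, CENP, NCAP and BUB families, cyclins A, B and E, and named single genes such as CDK1 and TOP2A), and 60 of the 16739 rows of the table matched. For the comparison of replication with mitosis, 18 of them form an S list (MCM2 to MCM7, MCM10, CDC6, CDC45, GINS1 to GINS4, ORC1, ORC6, CCNE1, CCNE2 and UHRF1). A G2/M list holds 19 of them (TOP2A, CDK1, CCNA2, CCNB2, BUB1, BUB1B, NUSAP1, NEK2, TPX2, ASPM, CENPE, CENPF, HJURP, NCAPG, NCAPH, NCAPD2, NCAPG2, SMC2 and SMC4), and 23 members are in neither. CCNB1, CDC20 and CENPA, which the G2/M list also names, were not found by symbol and are not analysed here.

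Cells came from the back skin of goat fetuses (Capra hircus, breed Northern Shaanxi White Cashmere Goat) at embryonic days 60, 90 and 120 (E60, E90 and E120), with 1 droplet-based 3′ single-cell library per stage. Every stage pooled cell suspensions of at least 2 fetuses, and no animal carried a genetic change or received a treatment under study. At E60 and E90 whole skin was digested with collagenase IV and broken up by pipetting, whereas at E120 hair follicles were first picked out and then dissociated with a trypsin-like enzyme. Stage and preparation can therefore not be told apart, and the E120 library describes follicles rather than whole skin.

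In the G1 phase, the origin recognition complex (ORC) and CDC6 load the MCM2 to MCM7 helicase onto DNA, which licenses an origin. CDC45, the GINS complex and MCM10 then turn the loaded helicase into an active one, and cyclin E with its kinase drives entry into S phase. In mitosis, condensin compacts the chromosomes, TOP2A untangles them, the constitutive centromere proteins carry the kinetochore that binds spindle microtubules, and the BUB proteins hold anaphase back until the chromosomes are attached. In skin these genes mark the dividing cells of the epidermal basal layer and, in the follicle, of the hair matrix, whose daughters stop dividing as they become hair shaft and inner root sheath.

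The libraries held 6849, 6931 and 6896 cells with 65049552, 30277663 and 93403291 UMIs (counted transcript molecules) at E60, E90 and E120. The median cell had 8579, 3714 and 13064 UMIs, and mitochondrial genes made up a median of 4.52%, 11.1% and 5.26% of them. E90 thus stood apart as the shallowest library with the largest mitochondrial share. The table holds 20676 cells in all and the study's design text states 19705. Pairs of libraries shared 9 to 13 cell barcodes, and no barcode was in all 3. Levels are UMI counts scaled to a total of 1000000 in the library or cell group (CPM). They are not divided by transcript length, so they compare a gene with itself and not with other genes. A fold given for a single gene is the plain ratio of its CPM values. With 1 library per stage no test was possible. Intervals are 95% intervals of counting error only, and they do not cover differences between fetuses or preparations.

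Summed over all cells, both lists were highest at E60 and lowest at E90. The E60 library lacked cells as shallow as those of the others, and the part of this in the order was not tested. For the S list, the E60 library summed to 621 CPM (615 to 627), the E90 library to 410 CPM (403 to 418) and the E120 library to 493 CPM (488 to 497). In the same order the G2/M list summed to 1737 CPM (1727 to 1747), 953 CPM (942 to 964) and 1188 CPM (1181 to 1195). On the log2 scale E90 was below E60 by 0.60 for the S list and 0.87 for the G2/M list, and E120 was above E90 by 0.26 and 0.32. With each cell given the same weight, whatever its depth, these differences were -0.45 and -0.53, and 0.35 and 0.18, and that of E120 from E60 in the S list went from -0.33 to -0.11. The G2/M list sum was 2.80 times the S list sum at E60, 2.32 times at E90 and 2.41 times at E120, and the E60 ratio (2.77 to 2.83) did not overlap the others. All 60 members together took 3082, 1845 and 2145 CPM.

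Of the 60 members, 38 had their highest level at E60, 15 at E90 and 7 at E120. For 42 of them the interval of the highest library lay above both others. Among the 49 members with at least 5 CPM in 2 or more libraries, 73.5% were highest at E60, where 28.9% of all 6942 such genes were. The counts by role are given without a test. Within the G2/M list 16 of 19 were highest at E60, with TOP2A, TPX2, NUSAP1, ASPM, BUB1 and BUB1B among them. Of the 14 licensing genes 7 were highest at E60 and 6 at E90. Of the 6942 genes, 39.7% were highest at E90, so the 6 are not read as a result about licensing genes.

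**Figure D1:**
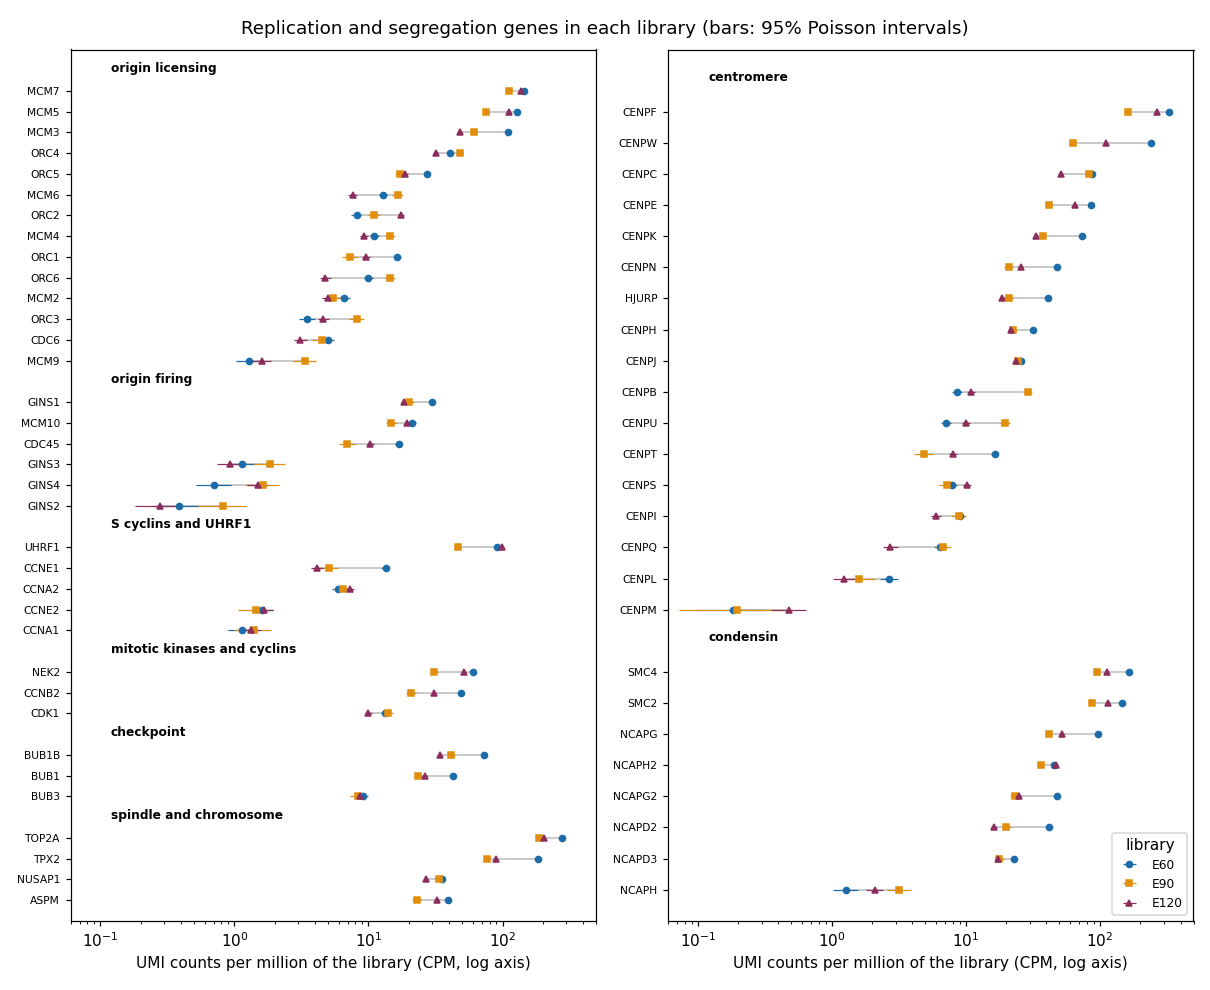
Level of each member in the 3 libraries, grouped by role, as CPM on a log axis; points are libraries, bars are 95% Poisson intervals and grey lines join a gene's lowest and highest library. E60 lies at the right for most kinetochore, condensin and spindle genes, whereas CENPB, CENPU, ORC3, ORC6 and MCM6 have E90 at the right.

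Among the licensing genes, MCM7, a helicase subunit, was at 144, 111 and 138 CPM at E60, E90 and E120. MCM5, another subunit, was at 128, 75.9 and 111 CPM. Both had their lowest level at E90 and recovered most of the difference at E120. MCM3, also part of the helicase, followed a different course, with 110, 61.1 and 48.2 CPM, and was lower in each later library. MCM6 and MCM4 were highest at E90, with 12.9, 16.5 and 7.62 CPM for MCM6 and 11, 14.5 and 9.27 CPM for MCM4. The 6 subunits of the helicase thus did not keep 1 proportion across the libraries. Of the origin recognition subunits, ORC6 was at 10.0, 14.5 and 4.76 CPM, 3.04-fold lower at E120 than at E90. ORC2 was at 8.15, 11 and 17.4 CPM, higher in each later library and 2.13-fold higher (1.93 to 2.36) at E120 than at E60. ORC3 was at 3.49, 8.16 and 4.60 CPM. ORC4 was also highest at E90, with 40.9, 47.9 and 31.8 CPM. MCM9, a relative of the helicase subunits that acts in DNA repair, stayed at or under 3.37 CPM in all 3 libraries.

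The firing genes were detected at low levels. GINS1 was at 29.7, 20 and 18.5 CPM and MCM10 at 21.3, 14.8 and 19.5 CPM. CDC45 was at 16.8, 6.94 and 10.3 CPM. The other GINS genes were at 0.278 to 1.85 CPM, under the 5 CPM required for a fold to be counted. UHRF1, which brings the maintenance DNA methyltransferase to newly copied DNA, was at 91.7, 46.9 and 99.6 CPM. Its E120 level was 2.12-fold that of E90 (2.01 to 2.25), and UHRF1 was the single member at least 2-fold higher at E120 than at E90. CCNE1, cyclin E1, went the other way after E60, with 13.4, 5.05 and 4.15 CPM, and was 3.23-fold lower at E120 than at E60. CCNA2, cyclin A2, stayed between 5.93 and 7.27 CPM, and CCNE2 and CCNA1 between 1.14 and 1.67 CPM.

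Centromere genes included the members with the largest differences. CENPF, a large outer kinetochore protein, was at 327, 162 and 265 CPM at E60, E90 and E120. CENPW, a histone-fold protein that pairs with CENPT in the inner kinetochore, was at 240, 62.7 and 111 CPM. CENPT itself was at 16.4, 4.89 and 8.04 CPM. The partners thus shared the order of the libraries, with E90 3.83-fold lower than E60 for CENPW and 3.35-fold lower for CENPT. CENPE, a kinesin that moves chromosomes to the spindle equator, was at 86.4, 41.6 and 65.1 CPM. CENPB, which binds a motif of satellite DNA, had the reverse pattern, with 8.56, 29.0 and 11 CPM. CENPU, an inner kinetochore subunit, likewise had 7.13, 19.6 and 10.1 CPM. CENPB was 3.39-fold higher (3.04 to 3.77) at E90 than at E60, and CENPU 2.75-fold higher (2.43 to 3.11). CENPQ, from the same inner complex as CENPU, was at 6.40, 6.80 and 2.74 CPM. CENPK was at 73.7, 37.4 and 33.3 CPM. CENPJ, which despite its symbol builds centrioles, was nearly level at 25.8, 24.7 and 23.6 CPM. CENPM was seldom seen, with 12, 6 and 45 UMIs in the whole libraries.

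Of the 8 condensin genes 5 were lowest at E90, as were 26 of all 60 members. The like count over all genes was not made, so these counts are not read as a result about the members. The core subunits SMC4 and SMC2 were at 166, 95.5 and 114 CPM and at 146, 87.0 and 116 CPM. NCAPD2, a condensin I subunit, was at 41.8, 20.1 and 16.3 CPM, 2.57-fold lower at E120 than at E60. NCAPH2, a condensin II subunit, was at 45.2, 36.3 and 47.2 CPM, and its E60 and E120 intervals overlapped.

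Of the mitotic kinases and cyclins, NEK2, which separates the centrosomes, was at 60.6, 30.8 and 51.6 CPM. CCNB2, cyclin B2, was at 49.1, 20.8 and 30.7 CPM. CDK1, the kinase that cyclin B activates, was at 13.3, 13.9 and 10.0 CPM and did not share their low level at E90. The checkpoint genes BUB1B and BUB1 were at 73.1, 41.6 and 34.3 CPM and at 43.0, 23.4 and 26.2 CPM. BUB3 was at 9.10, 8.29 and 8.61 CPM, with overlapping intervals. TOP2A was at 278, 188 and 204 CPM and TPX2, an activator of Aurora kinase A on the spindle, at 185, 76.8 and 89.0 CPM.

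To count genes past 2-fold, and for log2 ratios of single genes, 1 was added to each CPM, and a gene was counted where the higher of the 2 libraries reached 5 CPM. Between E60 and E90, 3 of 50 members were at least 2-fold higher at E90 (CENPB, CENPU and ORC3), where 24.0% of all 7958 genes were. At least 2-fold lower at E90 were 13 of 50, where 7.45% of all genes were. The members' median log2 ratio was -0.61 and that of all genes 0.25. The lowest members were CENPW at -1.92, CENPT at -1.56 and TPX2 at -1.26. When each cell was given the same weight, 3 members rather than 13 were at least 2-fold lower.

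Between E90 and E120, 1 of 50 members (UHRF1) was at least 2-fold higher at E120 and 4 were at least 2-fold lower, where 9.15% and 25.7% of all genes were. The members' median log2 ratio was 0.12 and that of all genes -0.30. The highest were UHRF1 at 1.07, CENPW at 0.81 and NEK2 at 0.73. The lowest were ORC6 at -1.43, CENPB at -1.32 and CENPQ at -1.06, and MCM6 at -1.02 was the fourth past 2-fold. Between E60 and E120, 1 of 49 members (ORC2) was at least 2-fold higher and 8 were at least 2-fold lower at E120, where 19.8% and 21.2% of all genes were, so both shares were at or under the background. The members' median was -0.52 against 0.07 over all genes. CCNE1 at -1.48, NCAPD2 at -1.31 and MCM3 at -1.18 were the lowest, and ORC2 at 1.01, CENPU at 0.45 and CENPS at 0.33 the highest. With each cell given the same weight, 2 rather than 8 members were at least 2-fold lower at E120 than at E60, and 2 rather than 4 were lower at E120 than at E90. ORC2 was under the 2-fold limit, at 0.99, with median-of-ratios scaling.

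Other cell cycle genes were taken from lists chosen by function. Of all genes, 7.45% were at least 2-fold lower and 24.0% at least 2-fold higher at E90 than at E60. Of 41 other G2/M genes with enough counts, 14 were at least 2-fold lower at E90 than at E60 and none higher, with CKAP2L (55.4 and 16.1 CPM), KIF20B (210 and 70.6 CPM) and CDCA3 (46.6 and 15.5 CPM) the lowest. Their median log2 ratio was -0.86. Of 20 other S genes, 1 was at least 2-fold lower, RAD51AP1 with 34.8 and 11.4 CPM, and the median was -0.23. Among 10 cohesin genes, which hold sister chromatids together, STAG1 alone was at least 2-fold higher at E90 (12.8 and 34.3 CPM) and none was lower by that much. Of 14 regulators, 3 were at least 2-fold higher at E90 (LIN9, RB1 and E2F5, with LIN9 at 4.32 and 17.1 CPM), a share near the 24.0% of all genes. Among the CDK inhibitors, which arrest the cycle, CDKN1A was at 3.24, 144 and 149 CPM at E60, E90 and E120, while CDKN1C was at 567, 241 and 27.3 CPM. Between E60 and E120, 14 of 41 other G2/M genes were again at least 2-fold lower and none higher, where 21.2% and 19.8% of all genes were. Between E90 and E120, 2 of 39 were at least 2-fold higher and none lower, where 9.15% and 25.7% of all genes were. The 2 were SPC24 (43.0 and 102 CPM) and OIP5 (3.96 and 14 CPM).

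How the same transcripts were spread over cells differed more between libraries than their sums. Each cell was thinned to 2000 UMIs for this purpose. At E60, 59.4% of cells held no UMI of the G2/M list and 10.0% held 10 or more. At E120 the shares were 54.5% and 7.08%. At E90 only 26.0% held none, yet 1.67% held 10 or more. The Fano factor of the G2/M count per cell, its variance over its mean, was 15.7, 3.33 and 8.60 in E60, E90 and E120. A value of 1 is what random sampling from identical cells gives. For the S list it was 3.23, 1.28 and 2.61.

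**Figure D2:**
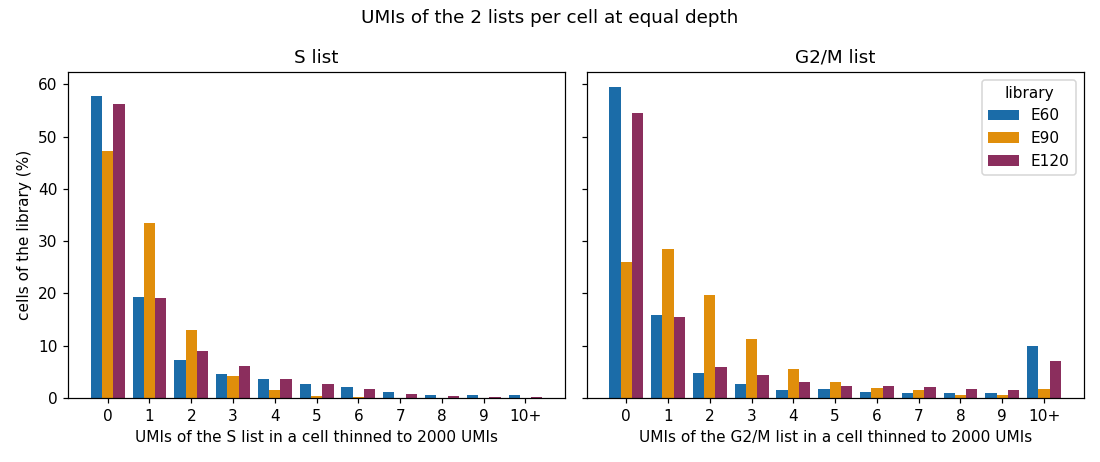
Share of cells (%) by number of UMIs of the S list (left) and the G2/M list (right) after thinning each cell to 2000 UMIs, with 1 bar colour per library. E60 and E120 have a tall bar at 0 and a second one at 10 or more G2/M UMIs (10.0% and 7.08%), whereas E90 is spread over 0 to 4 UMIs and has 1.67% at 10 or more.

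For the G2/M list, shares at a cut of 2 UMIs and levels gave opposite orders. Cells with at least 2 G2/M UMIs made up 24.7% (23.7 to 25.8) of the E60 library, 45.5% (44.4 to 46.7) of E90 and 30.1% (29.0 to 31.2) of E120, although E90 had the lowest G2/M level. Without thinning the shares were 46.5%, 74.7% and 57.6%. Other cuts put E90 lowest. Thinned cells with at least 5 G2/M UMIs made up 15.8%, 9.26% and 16.7%, and those with at least 2 S list UMIs 22.9%, 19.2% and 24.5%. No order between stages was read from these shares. Over the 12 clusters of E90 with at least 50 cells the share with at least 2 G2/M UMIs ran from 17.2% to 55.1%. It was 54.0% (43.7 to 64.0) in melanocyte-like, 55.1% (42.6 to 67.1) in mast-like, 39.1% (28.8 to 50.1) in endothelial-like and 32.4% (27.3 to 37.8) in KRT10-positive suprabasal cells, at median depths of 3343 to 4044 UMIs. In the dermal-like clusters led by COCH and BMP3 it was 22.5% and 17.2%, at 6885 and 4745 UMIs. Over the 16 clusters of E120 it ran from 3.01% to 64.5%. There it was 42.0% in mast-like, 14.8% in endothelial-like and 8.92% in KRT10-positive suprabasal cells. The lowest shares of E120 were 3.10% and 3.01%, in the shaft-like cluster led by GPRC5D and the inner root sheath-like cluster led by KRT27, at 25221 and 18915 UMIs. The part of free RNA in these shares was not tested. How the G2/M UMIs were spread over cells also differed between E90 clusters. The Fano factor was 13.8 in an epithelial-like cluster led by TAC1 and SEMA3E (168 cells) and 10.9 in a dermal-like cluster led by COCH and FNDC1 (307 cells). It was 7.04 in a second dermal-like cluster led by BMP3 (215 cells), and 1.24 to 3.73 in the other 9 clusters of at least 50 cells. The first 3 were also the deepest before thinning, with medians of 6962.5, 6885 and 4745 UMIs, against 3343 to 4126 in the other 9. The part of depth or cell quality in this was not tested.

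Members outside the G2/M list were then compared between cells with many and cells with no G2/M UMIs. In cells with at least 5 G2/M UMIs, the S list mean was 4.54-fold that of cells with none at E60, 3.93-fold at E120 and 1.51-fold at E90. Of 32 members outside the G2/M list with at least 20 UMIs over both sets of cells in every library, 29 had their lowest fold at E90. In the G2/M-rich cells alone, 21 of the 32 had at least 20 UMIs in every library, and all 21 had their lowest fold at E90, while the others went down to 4 UMIs. The median fold of the 32 was 4.06, 1.65 and 3.86 in E60, E90 and E120. Both sets of cells were cut on the same G2/M counts, whose spread was smallest at E90. Such a cut sets cells less apart at E90, so the folds of single members there are not separate from that spread.

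The folds differed widely, also within a role. CENPT, CENPN and CENPW, inner kinetochore genes, were 50.4-, 38.0- and 35.3-fold higher in the G2/M-rich cells of E60 and 48.2-, 23.2- and 22.9-fold higher at E120. CENPI, from the same part of the kinetochore, was 39.8-fold higher at E60 and 5.97-fold at E120, and CENPC, its base, 2.42- and 2.44-fold. UHRF1, an S list gene, was 19.4-fold and 7.58-fold higher. The helicase subunits MCM5 and MCM7 were only 3.41- and 3.21-fold higher at E60 and 2.36- and 3.91-fold higher at E120. CENPB had folds of 1.12 (0.632 to 1.89) and 1.16 (0.751 to 1.76), with 1 in both intervals. ORC4 was at 1.09 (0.857 to 1.37) at E60 and 1.43 (1.13 to 1.81) at E120.

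**Figure D3:**
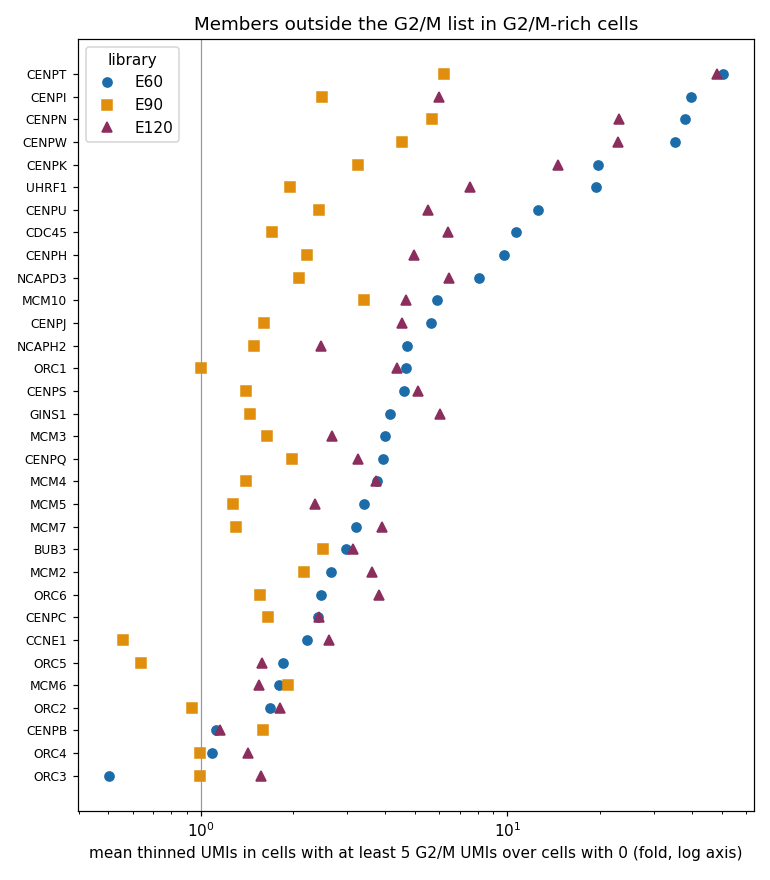
Fold of each member's mean thinned count in cells with at least 5 G2/M UMIs over cells with none (log axis), for the 32 members outside the G2/M list with at least 20 UMIs over both sets, ordered by the E60 value; points are libraries. CENPT, CENPI, CENPN and CENPW lie at the top with E60 folds up to 50.4, ORC3 (0.501), ORC4 and CENPB at the bottom, and the E90 points lie nearest to 1 for most genes.

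Genes outside every list that were most like the members, by the fold between the same 2 sets of cells, were NEIL3, KIFC1, HIST1H1B, DEPDC1B and PRR11 at E60, with folds of 83.3 to 64.2 between 1081 and 4065 cells. At E120 they were DEPDC1B, KIFC1, FBXO5, PARPBP and HIST1H1B, with folds of 34.7 to 17.7. At E90 they were MND1, DIAPH3, FBXO5, DBF4 and HIST1H1B, with folds of 5.38 to 3.32. Genes that carry only an Ensembl identifier ranked among the first 5 in each library and are not named.

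For the description by cell type, cells were clustered without the cell cycle genes and without the 2080 genes that followed the members' sum in any library, and clusters of at least 50 cells of a library were kept (10 at E60, 12 at E90 and 16 at E120). Names end in "-like" because they rest on marker genes. Over these clusters the G2/M sum spanned 28.3-fold at E120, 3.75-fold at E60 and 2.73-fold at E90, and the S sum 18.7-, 2.31- and 2.25-fold. In the first clustering, without the cell cycle genes alone, some clusters were led by histone or mitosis genes (HIST1H1B, TROAP). The G2/M sum then spanned 47.0-, 73.4- and 2.33-fold and the S sum 17.7-, 7.6- and 2.33-fold in the same order, so which of E60 and E120 spanned more depended on the clustering.

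At E120 the named epithelial-like clusters held both the highest and the lowest sums. A hair matrix-like cluster led by SHH and CXCL14, with the dermal gene DCN also among its leading genes, had an S sum of 1215 CPM (1193 to 1238) and a G2/M sum of 2860 CPM (2826 to 2894) in 761 cells. In an inner root sheath-like cluster led by FGF2 and GATA3 (662 cells) the sums were 994 and 2200 CPM. In an epithelial-like cluster led by SNCAIP and SELENBP1 (1221 cells) they were 718 and 1909 CPM. Mast-like cells (100 cells) had 625 and 2231 CPM, and an unnamed cluster led by MT3 and KITLG (671 cells) had 805 and 2100 CPM. A cluster led by KRT27 and KRT71, keratins of the formed inner root sheath, had 82.3 and 121 CPM in 399 cells. A hair shaft-like cluster led by GPRC5D and KRTAP11-1 had 65.1 CPM (59.6 to 70.9) and 101 CPM (94.1 to 108) in 355 cells. The G2/M sum of the GATA3 cluster was 18.2-fold (17.1 to 19.4) that of the KRT27 cluster, and the S sum 12.1-fold (11.2 to 13.1). Cells with at least 2 G2/M UMIs made up 64.5% (61.0 to 67.9) of the SHH cluster, 61.8% (58.0 to 65.5) of the GATA3 cluster and 3.10% (1.56 to 5.48) of the GPRC5D cluster.

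Levels of single members are given for the SHH, GATA3, KRT27 and GPRC5D clusters, which include the highest and the lowest sums. TOP2A and MCM7 are themselves part of the sums, so their levels are not separate from them. TOP2A was at 539 CPM in the SHH cluster, 357 CPM in the GATA3 cluster, 10.7 CPM in the KRT27 cluster and 12.2 CPM in the GPRC5D cluster. MCM7 was at 331, 278, 34.0 and 13.9 CPM. CENPW was at 221, 262, 15.4 and 8.67 CPM and was the highest in the GATA3 cluster. ORC4, with 36, 33.4, 31.6 and 25.0 CPM, spanned far less than these. ORC2 was between, with 18.8, 17.2, 9.53 and 7.91 CPM.

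Across the 16 clusters of E120, 45 of 60 members had a correlation of at least 0.8 with the G2/M sum, and 47 had one with the S sum. Each gene was left out of the sum it was compared with. Of the 23 members in neither list, 13 reached 0.8 with the G2/M sum and 13 with the S sum. Of all 15270 genes detected, 3.31% and 3.24% did. Under 0.5 with the G2/M sum were ORC2, MCM9, ORC3 and CENPB, and ORC4 was at 0.54. Across the 10 clusters of E60, 24 members reached 0.8 with the G2/M sum and 13 with the S sum, against 2.45% and 1.18% of all genes detected. Clusters of a library share its depth and free RNA, so these are descriptions over 16 and 10 points.

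**Figure D4:**
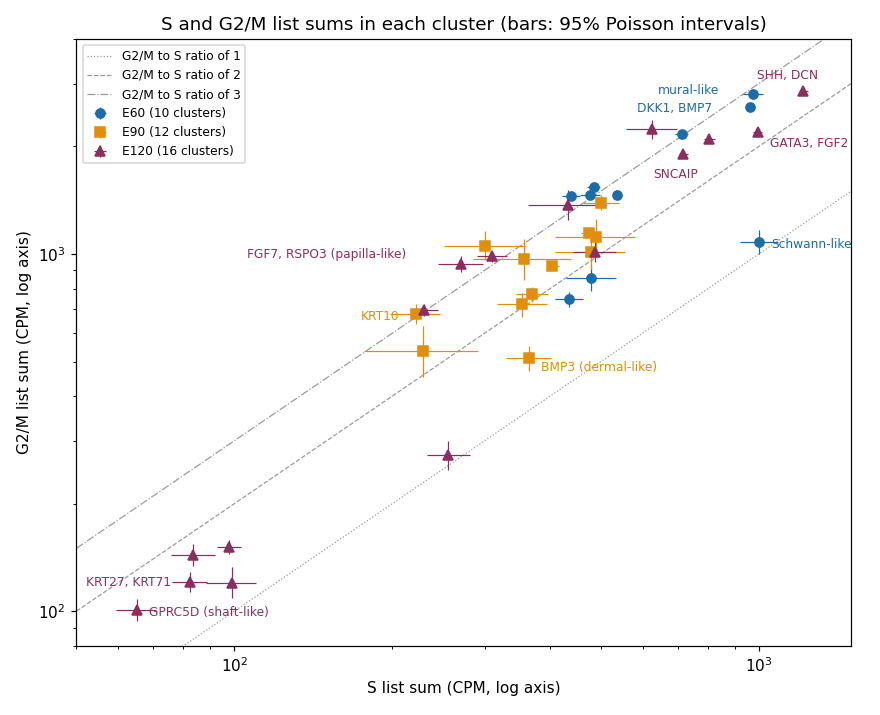
S list sum against G2/M list sum (both CPM, log axes) in each cluster of at least 50 cells of a library, with lines at G2/M to S ratios of 1, 2 and 3; colours and shapes are libraries and bars are 95% Poisson intervals. E120 clusters run from the GPRC5D cluster (65.1 and 101 CPM) to the SHH cluster (1215 and 2860 CPM), while the 12 E90 clusters lie between 510 and 1393 CPM in the G2/M sum.

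At E60 the G2/M sums of the dermal-like clusters were all above those of endothelial-like and myeloid-like cells, whereas the S sums of 4 of them (438 to 537 CPM) were near theirs (434 and 479 CPM). The highest of them was led by ISM1, DKK1 and BMP7. Among its 10 leading genes 1 was a condensate or papilla marker (BMP7), so it is not named as papilla. In the first clustering at Leiden resolution 2, a cluster also led by ISM1 and DKK1 stayed unnamed, with under 3 markers of its closest class. The ISM1 cluster had an S sum of 962 CPM and a G2/M sum of 2576 CPM. Of its 1177 cells, 34.7% (32.0 to 37.5) had at least 2 G2/M UMIs. Its CENPW level was 552 CPM, the highest of the E60 clusters and 8.21-fold that of endothelial-like cells (67.2 CPM). The tendon- or cartilage-like cluster led by THBS4 and COL2A1 had 477 and 1459 CPM. Mural-like cells had 974 and 2800 CPM. Endothelial-like and myeloid-like cells had the lowest G2/M sums, 747 CPM (712 to 783) and 857 CPM (789 to 928).

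The papilla-like cells of E120, led by FGF7, APOD, RSPO3 and RSPO2, held these transcripts in few cells. Of 213 cells, 10.8% (6.97 to 15.8) had at least 2 G2/M UMIs and 72.3% had none. Their G2/M sum was nevertheless 937 CPM, and the Fano factor of 20.3 was the highest of the E120 clusters. Only 9 of the cells had at least 5 G2/M UMIs, and without the highest doublet scores, which left 4 of the 9, the G2/M sum was 493 CPM. In the BMP3-led papilla-like cluster of E90 the G2/M sum was 510 CPM, and 47.0% of 215 cells had none.

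The proportion of mitosis to replication genes also differed between clusters. In the dermal-like clusters of E60 the G2/M to S ratio was 2.68 to 3.31, but in the first clustering, such clusters ran from 0.416 to 36.7. It was 1.72 (1.59 to 1.86) in endothelial-like, 1.79 (1.56 to 2.05) in myeloid-like and 1.08 (0.962 to 1.21) in Schwann-like cells. The 60 Schwann-like cells had a high S sum of 1001 CPM beside a G2/M sum of 1080 CPM, with MCM5 at 277 CPM and TOP2A at 145 CPM. In the dermal cluster led by DKK1, of similar S sum, MCM5 was at 224 CPM and TOP2A at 392 CPM. At E120 the ratio was 2.35 in the SHH cluster, 2.21 in the GATA3 cluster and 2.66 in the SNCAIP cluster. It was 1.22 to 1.72 in the 5 shaft-like, inner root sheath-like and KRT75-positive clusters with low sums, and 1.07 (0.936 to 1.22) in KRT10-positive suprabasal cells. Papilla-like cells of E120 had 3.47 (3.10 to 3.89), or 2.36 (2.03 to 2.75) without the highest doublet scores, and mast-like cells 3.57 (3.15 to 4.05). At E90 the ratio was 1.40 (1.23 to 1.60) in the BMP3 cluster, 3.07 (2.71 to 3.48) in suprabasal cells and 3.50 (2.87 to 4.29) in melanocyte-like cells. The interval of the BMP3 cluster lay below those of the suprabasal and melanocyte-like cells of E90, and that of the suprabasal cells of E120 below those of the SHH, GATA3 and SNCAIP clusters.

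Stages were compared within broad classes, named from clusters that were made without the cell cycle genes alone. Epithelial-like cells numbered 1862 at E90 and 5839 at E120, with next to none at E60. Dermal-like cells numbered 5991, 522 and 220 at E60, E90 and E120. At E90, 4392 cells in clusters with mixed or mitochondrial leading genes stayed unnamed, and their S and G2/M sums of 410 and 971 CPM were near those of the whole library.

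In epithelial-like cells both sums were a little higher at E120. Their S sum went from 427 CPM (413 to 440) to 505 CPM (500 to 510), which is 0.24 on the log2 scale. Their G2/M sum went from 1036 CPM (1015 to 1057) to 1203 CPM (1195 to 1210), which is 0.22. None of 49 members was at least 2-fold higher and 4 were at least 2-fold lower at E120, where 8.16% and 28.2% of all genes were. CENPW (61.8 and 113 CPM), UHRF1 (56.9 and 103 CPM) and CENPF (183 and 270 CPM) were the highest at E120. CENPB (27.2 and 10.6 CPM), CENPQ (7.63 and 2.56 CPM) and CENPU (22.9 and 10.2 CPM) were the lowest. When cells were classed one by one from their own marker counts, the direction of both sums turned, to -0.39 and -0.43. In the second clustering, used for the clusters above, they were 0.14 and 0.06.

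In dermal-like cells the summed level of the mitosis genes was lower at E90 than at E60. Their G2/M sum was 1644 CPM (1634 to 1655) in the E60 library and 611 CPM (585 to 639) in the E90 library, or -1.43 on the log2 scale. Their S sum was 570 CPM (564 to 577) and 370 CPM (349 to 392), or -0.62. At E60 the dermal-like cells with at least 5 G2/M UMIs had a median depth of 12041 UMIs, against 8172.5 in the others. The part of the higher lowest depth of E60 cells in these differences was not tested. At least 2-fold lower at E90 were 21 of 52 members, where 5.33% of all genes were, and 6 were at least 2-fold higher, where 38.0% were. The members' median log2 ratio was -0.80 and that of all genes 0.59. Within the G2/M list 13 of 18 were at least 2-fold lower and none higher, and of the S list 4 of 14 were lower and 2 higher. CCNB2 (48.6 and 5.32 CPM) was 9.13-fold lower, NEK2 (59.5 and 9.39 CPM) 6.34-fold and CENPW (206 and 43.5 CPM) 4.75-fold. CENPU (6.42 and 28.5 CPM), CENPB (8.45 and 32.5 CPM) and ORC3 (3.49 and 14.1 CPM) were the highest at E90, as they were in whole libraries. Of the other G2/M genes 30 of 41 were at least 2-fold lower and none higher, with CDCA3 at 45.1 and 4.38 CPM. Of 3 CDK inhibitors with enough counts in these cells, CDKN1A alone was at least 2-fold higher at E90, with 2.22 CPM at E60 and 25.3 CPM at E90. The lowest log2 ratio of the 3 was -0.28.

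Dermal-like cells of E90 also carried keratinocyte transcripts. The 16 epithelial markers in the table summed to 1072 CPM in them, with 1 marker at 0, and to 7.76 CPM with 4 markers at 0 in those of E60. The 8 dermal markers in the table summed to 9400 and 19134 CPM. The epithelial-like cells of that library had 9636 and 1699 CPM of the same lists and the higher G2/M sum given above. The part of such mixing in the lower G2/M sum and in the higher CDKN1A level of the dermal-like cells was not tested.

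Between E90 and E120 the dermal-like cells gave no stable direction for mitosis genes. The G2/M sum at E120 was 960 CPM (910 to 1011), a log2 ratio of 0.65 over E90. Of 48 members 6 were at least 2-fold higher and 10 lower, where 11.4% and 20.3% of all genes were. CCNB2 (18.2 CPM), NEK2 (28.3 CPM) and ASPM (28.3 CPM, from 9.70 CPM) were the highest at E120. With each cell given the same weight the ratio was -0.13, and after removal of the 6% highest doublet scores it was -0.19. Only 10 of the 220 cells had at least 5 G2/M UMIs. Their median depth was 14599 UMIs, against 5424.5 in the others, and 5 of the 10 were among the highest doublet scores, against 12 of the other 210. Their epithelial markers summed to 396 CPM and their dermal markers to 5826 CPM, against 338 and 3924 CPM in the others. Whether the 10 cells are single cells was not tested further.

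The S sum of dermal-like cells was 281 CPM (254 to 309) at E120, below E90 by 0.40 on the log2 scale and by 0.68 without the highest doublet scores. With cells classed one by one from their own marker counts it turned direction, to 1.29. Of the S list 6 of 12 were at least 2-fold lower and none higher, where 20.3% and 11.4% of all genes were. ORC6 (28.8 and 6.75 CPM), MCM6 (31.0 and 8.10 CPM) and CDC6 (6.57 and 1.35 CPM) were lower by the most. CDC6 rests on 2 UMIs at E120. Between E60 and E120, 16 of 49 members were at least 2-fold lower and none higher, where 7.96% and 27.5% of all genes were. ORC1 (15.1 and 2.02 CPM), CENPT (14.7 and 2.70 CPM) and CDC45 (15.6 and 4.05 CPM) were the lowest, with 3 to 6 UMIs each at E120. CENPB (8.45 and 14.8 CPM), ORC2 (7.90 and 12.8 CPM) and CENPU (6.42 and 9.45 CPM) were the highest. At E120 these cells came from picked follicles, and those of E60 came from whole skin.

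**Figure D5:**
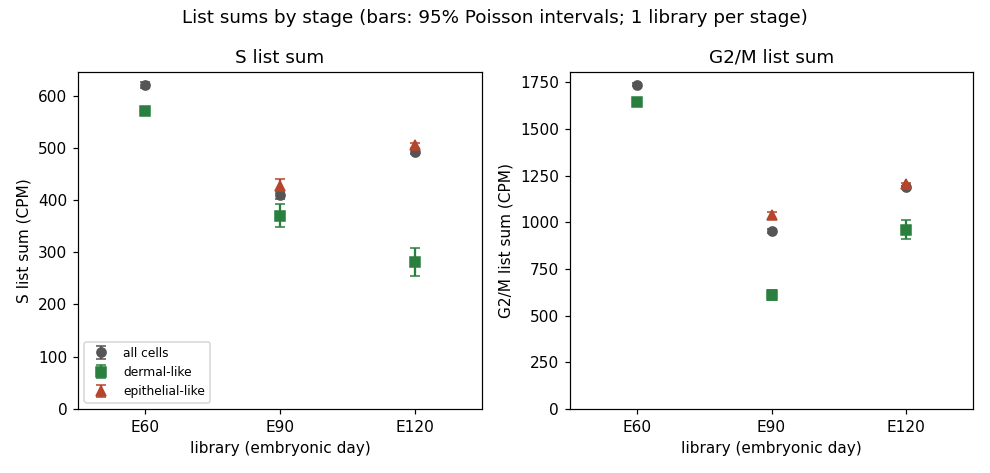
S list sum (left) and G2/M list sum (right) in CPM at each stage for all cells, dermal-like cells and epithelial-like cells; bars are 95% Poisson intervals and there is 1 library per stage. Dermal-like cells lie below all cells at each stage, with the lowest G2/M sum at E90 (611 CPM) and the lowest S sum at E120 (281 CPM).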

How the data were processed

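The kit was the 10x Genomics 3′ one, per the labels' protocols, and Cell Ranger 3.0.2 is named in the submitters' processing notes. The genome build, the annotation and the filters on cells are not given in the sources used here. The deposited values are natural log (ln) values of 1 plus UMIs scaled by the authors to 10000 per cell, as the values show. UMI counts were recovered by inversion, and 100% of nonzero values were whole within 0.01. The planned analysis had assumed counts, and the recovered counts were used throughout. Members, lists and markers were chosen with earlier results of these data known.

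Counts were summed per library or class and given as CPM. Log2 ratios are of CPM + 1 for single genes and of CPM for sums, later stage over earlier, folds of single genes are ratios of CPM, and a fold of 2 counts with at least 5 CPM in the higher group. Intervals (95%) are exact: Poisson for levels, conditional binomial for ratios and Clopper-Pearson for shares. The tools were Python 3.11.15, numpy 2.4.6, scipy 1.17.1 and leidenalg 0.10.2, and the calculations were tested on simulated data. All cells entered. Clusters were made from 2000 variable genes, 30 components and 20 neighbours, with 177 cell cycle genes kept out. Names needed 3 markers. The scoring of markers, and the second clustering, which also left out 2080 genes that followed the members at a correlation of 0.1 or more, were chosen with the data in view. No doublets were removed, and removal of the 6% highest scores was an alternative. RefSeq names of assembly ARS1.2 held 59 of the 60 symbols.

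Text values follow a rule: the 2 members of each role with the highest summed CPM, and the 3 highest and 3 lowest log2 ratios of each comparison. Other members named were chosen after their values were seen. Other lists are given by counts and up to 3 genes in each direction.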

Additional observations from a re-analysis of the deposited data

Results flagged for a closer look

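The S list sum moved in opposite directions between E90 and E120 in epithelial-like and dermal-like cells. Its log2 ratio of E120 over E90 was 0.24 in epithelial-like cells and -0.4 in dermal-like cells, each beyond counting error. With 1 library per stage the difference between the classes was not tested. When each cell was classed from its own marker counts, both directions turned, to -0.39 and 1.29.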

How the results depend on the processing

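No paired analysis was possible because each stage has 1 library. Among the main values under each alternative, 85 stayed within counting error or 1.5 times the count, 66 moved further and 5 turned direction. With median-of-ratios scaling, which shifted all genes by up to 0.16 in log2, the S and G2/M sums of whole libraries were 0.33 and 0.39 for E120 over E90 and -0.35 and -0.57 for E120 over E60. They were 0.35 and 0.33 in epithelial-like cells (E120 over E90) and -0.79 and -1.59 in dermal-like cells (E90 over E60), and 0 members rather than 1 were at least 2-fold higher at E120 than at E60. With each cell given the same weight, whole-library S and G2/M ratios were -0.45 and -0.53 (E90 over E60), 0.35 and 0.18 (E120 over E90) and -0.11 and -0.35 (E120 over E60). The epithelial-like S ratio was 0.43, the dermal-like G2/M ratio was -1.09 (E90 over E60) and the dermal-like ratios were -0.61 and -0.13 (E120 over E90). At least 2-fold lower were then 3 members (E90 against E60), 2 (E120 against E90) and 2 (E120 against E60). A cell filter of 1000 genes or more and 10% mitochondrial counts or less kept 2756 of 6931 cells at E90. G2/M ratios then were -0.74, 0.21 and -0.53 in whole libraries and 0.25 in epithelial-like cells. Without the 6% highest doublet scores, whole-library G2/M ratios were -0.9 (E90 over E60) and -0.59 (E120 over E60), the S ratio was -0.35 (E120 over E60), and dermal-like ratios were -0.68 and -0.19 (E120 over E90). A pseudocount of 5 CPM left 6 members lower (E90 against E60), 1 lower (E120 against E90) and 0 higher (E120 against E60). A minimum of 20 CPM left 1 higher (E90 against E60), 1 lower (E120 against E90) and 0 higher (E120 against E60).

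With each cell classed from its own marker counts, epithelial-like ratios were -0.39 and -0.43, the dermal-like G2/M ratio was -1.07 (E90 over E60), and dermal-like ratios were 1.29 and 1.34 (E120 over E90). The G2/M to S ratios were then 3.15 in dermal-like cells of E60, 2.54 in epithelial-like cells of E90 and 2.48 in those of E120, and the shares of cells with at least 2 G2/M UMIs were 18.5%, 46% and 21.7%. Leiden resolution 2 gave -1.55 for the dermal-like G2/M ratio (E90 over E60), and a G2/M to S ratio of 3 and a share of 24.7% in dermal-like cells of E60. The clustering added after the data were seen gave 0.14 and 0.06 in epithelial-like cells, -0.73 for the dermal-like S ratio (E90 over E60), 0.49 for the dermal-like G2/M ratio (E120 over E90), a G2/M to S ratio of 2.34 in epithelial-like cells of E120, and shares of 24.2%, 45.6% and 29.6%. Without the abundant genes the G2/M to S ratios were 3.03, 2.32 and 2.32. In the order dermal-like E60, epithelial-like E90 and epithelial-like E120, the shares were 38.2%, 71.3% and 47.3% with 1 UMI, 17.5%, 26% and 26.8% with 3 UMIs, and 43.3%, 73.3% and 61.8% without thinning. The cause of these moves was not tested. Of the 30 calls of single members in whole libraries, none changed sign under the 4 scaling and cell filter alternatives, and 12 stayed at 2-fold or more with each cell given the same weight. The limits are 1 library per stage, a preparation that changed with stage, the shallow E90 library and few dermal-like cells at E120. The lowest depth of a cell also differed between libraries, with 6269, 3000 and 2475 UMIs at E60, E90 and E120.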
